A study of Mus musculus with 6 samples.

Results

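The genes described here are 43 genes of DNA replication and S phase, measured in mouse bone marrow-derived macrophages (BMDMs, macrophages grown from marrow) given KN93, a compound that blocks the kinase CaMKII. They were taken by symbol from a list of named genes that covers origin licensing, the replicative helicase, the sliding clamp and its loader, the polymerases, nucleotide supply, E2F factors with cyclin E, and chromatin assembly, and all 43 were found among the 54446 entries of the deposited table. The cells came from 6-week-old C57BL/6 mice, and the 3 groups of 2 samples were given PBS (a buffer), 5 µM KN93 or 10 µM KN93. Total RNA was taken up in TRIzol and sequenced on Illumina libraries. How long the cells were treated, and whether the samples of a group were separate cultures or animals, is not in the labels, so the p-values speak only of how these 6 samples vary, and that spread may be technical. The names of all 6 value columns start with DXM, which no label accounts for.

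DNA replication starts when the origin recognition complex, CDC6 and CDT1 load the MCM2-7 helicase onto DNA in G1 phase. At the start of S phase, MCM10, CDC45 and GINS turn the loaded helicase into an active one, polymerase alpha-primase lays down primers, and polymerases delta and epsilon extend them while held by PCNA, the ring-shaped clamp that the RFC complex loads. Most of these genes are transcribed under E2F factors as cells enter S phase, and macrophages in culture pass through S phase only while growth factors keep them dividing.

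Values are FPKM, fragments scaled by gene length and library size. The library totals behind them ran from 24173000 to 28385000 fragments. With PBS, the median of the 43 genes was 4.37 FPKM and 10 of them averaged at least 10 FPKM. Of the 43, 40 reached 1 FPKM in at least 2 of the 6 samples and were tested along with 12722 genes in all. Orc1, Cdc6 and Ccne2 stayed below that level in every sample. Log2 changes are differences of log2(FPKM + 1), which makes the change of a low gene smaller than the ratio of its FPKM, and a gene was called higher or lower at an adjusted p under 0.05 (limma, Benjamini-Hochberg over all genes tested). A value after ± is the standard error of a log2 change. The labelled cell type was checked against 10 macrophage markers, and all 10 passed the filter. Csf1r was at 327 to 657 and Adgre1 at 339 to 1049 FPKM over the 6 samples. Markers of other cells were present too, such as the stromal Col1a1 at 831 and 781 FPKM with PBS.

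At 10 µM KN93, 30 of the 40 tested replication genes fell, 4 rose and 6 were not called. Among all genes tested, 22% fell and 28.5% rose in the same comparison. The median log2 change of the replication genes was -0.53, beside 0.05 for all genes tested. In FPKM, 17 of the 43 had a mean under 50% of the PBS mean, and 38 of the 43 had a lower mean than with PBS. How many of all genes had such means was not counted, in this or the other comparisons. The genes with the lowest share of their PBS level came from several roles: the mean was 9.90-fold lower for Rrm2, 8.15-fold lower for Tk1, 7.21-fold lower for E2f8, 6.77-fold lower for Uhrf1, 6.63-fold lower for Ccne2 and 6.4-fold lower for Cdc6. At 10 µM, E2f8 stood on 32 and 17 fragments, Cdc6 on 22 and 13, and Ccne2 on 15 and 10. Cdc6 and Ccne2 were below the filter and were not among the tested genes. Rfc2, Cdt1, Dnmt1 and Pcna were the 4 that rose. In bulk RNA, fewer cells in S phase and less of these RNAs per cell cannot be told apart.

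**Figure D1:**
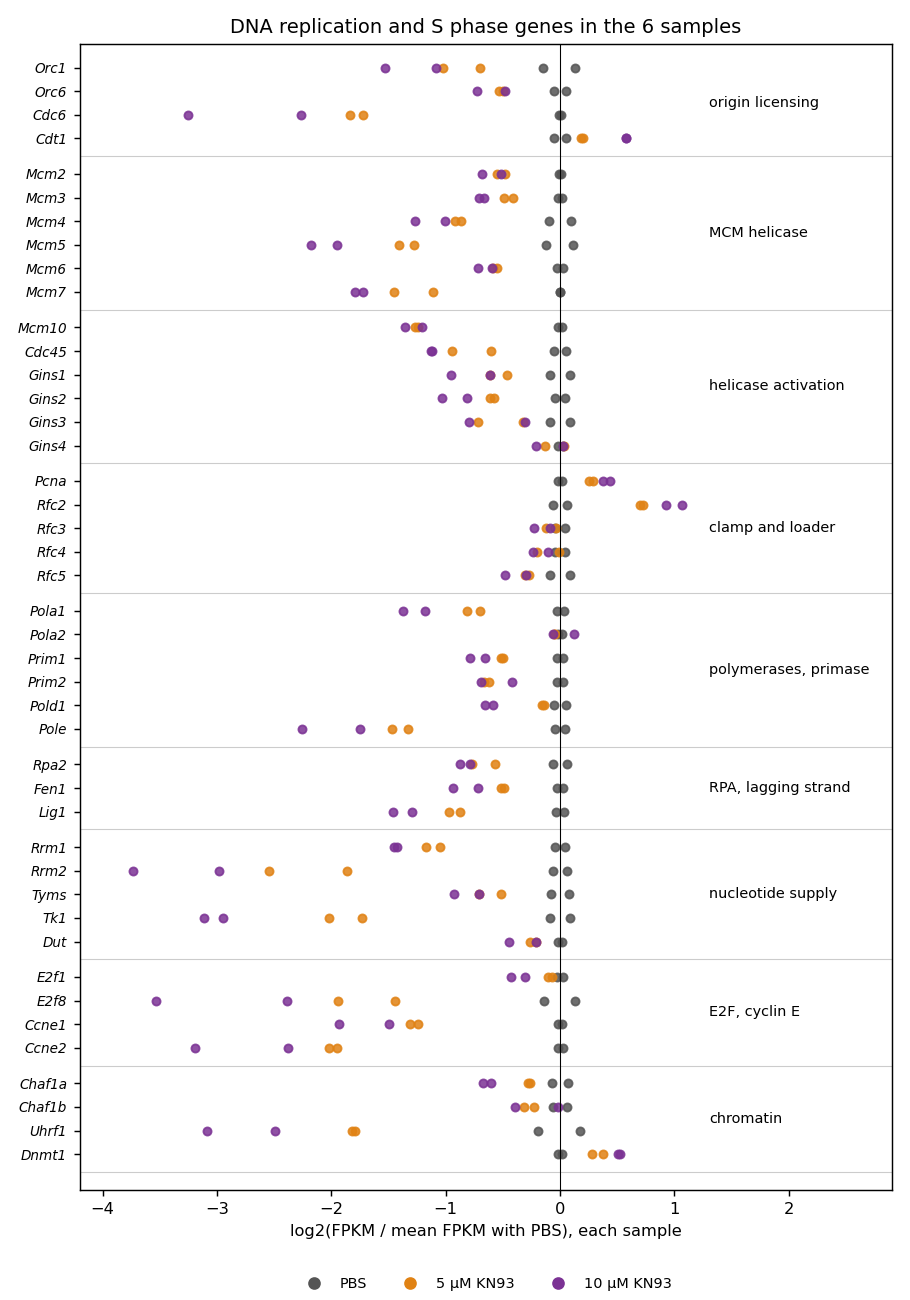
Each of the 43 replication genes in each of the 6 samples, as log2 of its FPKM over the mean of the 2 PBS samples (x axis), grouped by role. Points of Rrm2, Tk1, E2f8, Cdc6, Ccne2 and Uhrf1 lie far to the left at both doses, while those of Pcna, Rfc2, Cdt1 and Dnmt1 lie to the right of 0 in all 4 KN93 samples.

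The sequences upstream of a few of these genes are shown because E2F and NF-Y factors are known to bind promoters of this class. The part of these factors in the changes with KN93 was not tested. RefSeq promoter windows of GRCm38.p6, from 250 bases before to 50 bases after a transcript start, matched 35 of the 43 genes in 42 windows, while Ccne2, Prim2, Gins2, Pole, Gins4, Mcm4, Rfc2 and Gins1 had no entry. The stretches printed end at the base before the start and run 5′ to 3′ on the gene's strand, with no base in an annotated exon. Mcm5 is at chr8:75109284-75109508 (plus strand), Mcm6 at chr1:128359706-128359930 (minus strand), Uhrf1, at the second of its 2 starts, at chr17:56304088-56304312 (plus strand), Pola1 at chrX:93632156-93632380 (minus strand), Mcm2 at chr6:88898781-88899005 (minus strand) and Cdt1 at chr8:122567790-122568014 (plus strand). Capitals mark matches to the E2F motif and to the NF-Y motif. Mcm5, Mcm6, Uhrf1 and Pola1 fell and carry an E2F match, Mcm2 fell without one, and Cdt1 rose and has its only match just past the printed stretch. The printed genes do not stand for all that fell at 10 µM, of which 8 of the 25 with a window have an E2F match.
Mcm5: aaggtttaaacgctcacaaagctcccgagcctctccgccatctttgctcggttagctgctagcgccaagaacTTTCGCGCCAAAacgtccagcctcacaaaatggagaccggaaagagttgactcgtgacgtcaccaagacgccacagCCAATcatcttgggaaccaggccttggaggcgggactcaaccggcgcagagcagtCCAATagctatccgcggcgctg
Mcm6: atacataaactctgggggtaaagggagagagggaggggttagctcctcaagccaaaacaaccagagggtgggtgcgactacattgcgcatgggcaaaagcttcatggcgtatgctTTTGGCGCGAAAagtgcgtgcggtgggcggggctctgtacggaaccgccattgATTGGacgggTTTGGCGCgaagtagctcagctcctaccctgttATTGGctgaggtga
Uhrf1: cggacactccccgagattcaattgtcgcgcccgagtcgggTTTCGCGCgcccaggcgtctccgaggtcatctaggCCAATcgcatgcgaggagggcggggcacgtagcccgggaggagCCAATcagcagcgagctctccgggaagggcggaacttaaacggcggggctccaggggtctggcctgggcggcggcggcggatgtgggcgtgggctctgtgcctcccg
Pola1: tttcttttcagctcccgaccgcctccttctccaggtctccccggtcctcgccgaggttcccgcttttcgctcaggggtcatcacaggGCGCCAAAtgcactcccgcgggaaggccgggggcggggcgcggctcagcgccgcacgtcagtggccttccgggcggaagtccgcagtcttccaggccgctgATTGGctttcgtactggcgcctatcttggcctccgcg
Mcm2: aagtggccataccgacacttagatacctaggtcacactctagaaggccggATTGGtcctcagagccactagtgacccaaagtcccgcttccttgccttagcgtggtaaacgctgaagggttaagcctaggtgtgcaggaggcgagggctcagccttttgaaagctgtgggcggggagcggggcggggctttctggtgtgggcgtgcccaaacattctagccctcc
Cdt1: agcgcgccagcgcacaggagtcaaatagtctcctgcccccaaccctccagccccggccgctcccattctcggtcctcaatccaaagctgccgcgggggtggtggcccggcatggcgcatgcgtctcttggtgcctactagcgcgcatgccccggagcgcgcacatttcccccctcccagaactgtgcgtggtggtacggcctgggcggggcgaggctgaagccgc

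The E2F motif was searched as TTTCCCGC, TTTGGCGC, TTTGCCGC or TTTCGCGC on both strands, and a gene with several starts was counted if any of its windows held a match. It was found for 14 of the 35 replication genes (40%) and for 704 of 27025 genes with a window (2.6%). Counted from the start as 0, the matches of Mcm5 begin at -153 and -149 and overlap each other, and those of Mcm6 begin at -110, -106 and -47, the first pair overlapping. In Uhrf1 the match begins at -185, in Pola1 at -138 and in Cdt1 at 32. The CHR motif TTTGAA, known from genes of mitosis, was found for 6 of 35 replication genes (17.1%), 20.2% of all genes and 21 of 28 mitosis genes (75%). CCAAT, the NF-Y motif, was found for 21 of 35 (60%), beside 41.1% of all genes and 22 of 28 mitosis genes (78.6%). Among the replication genes, an E2F match was present for 8 of the 25 that fell at 10 µM and have a window, for 2 of the 3 that rose (Cdt1 and Dnmt1), for 2 of the 5 that were not called (Gins3 and Rfc3), and for both genes below the filter that have a window (Cdc6 and Orc1). A match describes the letters of this window and is not evidence of binding.

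**Figure D2:**
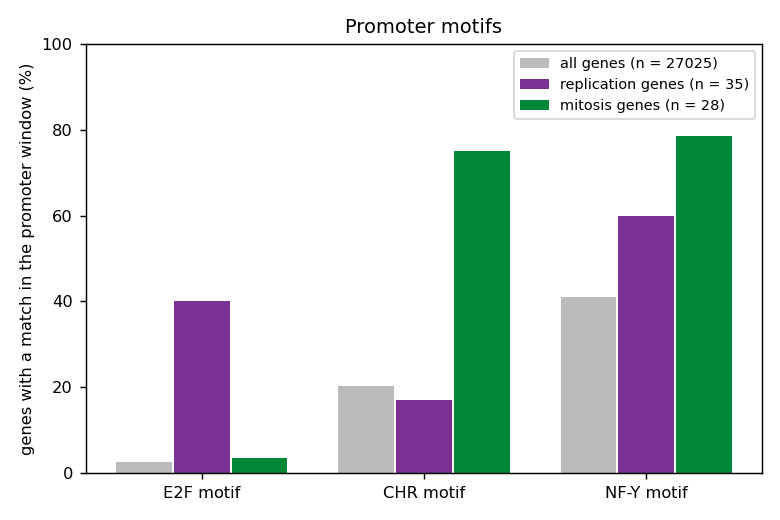
Share of genes (y axis, %) with at least 1 match to the E2F, CHR or NF-Y motif in the RefSeq promoter window, for all 27025 genes, 35 replication genes and 28 mitosis genes. The E2F bar is tall for the replication genes (40%) and short for the mitosis genes (3.57%), and the CHR bars show the opposite order (17.1% and 75%).

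Origin licensing was split. Cdc6, the ATPase that helps load the helicase, was at 0.832 and 0.844 FPKM with PBS, 0.254 and 0.235 at 5 µM, then 0.174 and 0.0876 at 10 µM. These values stand for 117 and 125 fragments with PBS but 22 and 13 at 10 µM. Orc1, the largest subunit of the origin recognition complex, was at 0.502 and 0.609 FPKM with PBS, 0.273 and 0.342 at 5 µM, then 0.262 and 0.192 at 10 µM. Both genes were below the filter, and in both the 3 groups kept apart except that the 5 and 10 µM samples of Orc1 nearly touched. With no filter on low values, the log2 change at 10 µM was -0.70 for Cdc6 (adjusted p = 0.00319) and -0.34 for Orc1 (adjusted p = 0.0313). Orc1 shares 10.8% of its exon bases with Gm12743 on the opposite strand, which averaged 0.562, 0.608 and 0.885 FPKM over the 3 groups. Orc6, the smallest subunit of the same complex, fell at 10 µM (3.48 and 3.75 FPKM with PBS, 2.49 and 2.56 at 5 µM, 2.58 and 2.18 at 10 µM, log2 change -0.45 ± 0.08, adjusted p = 0.00624). Its fall at 5 µM (-0.39, adjusted p = 0.0185) was not called when any single PBS or 5 µM sample was left out (adjusted p 0.0638 to 0.0967).

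Cdt1, which brings MCM2-7 to the origin and is destroyed during S phase as a protein, went the other way. It measured 12.6 and 13.6 FPKM with PBS, 14.9 and 15.1 at 5 µM, and 19.6 in both 10 µM samples. The groups did not overlap, and every step was upward. Cdt1 rose by 0.54 ± 0.05 on the log2 scale at 10 µM (adjusted p = 0.000588) and by 0.36 from 5 to 10 µM (adjusted p = 0.00843). The rise of 0.18 at 5 µM (adjusted p = 0.046) was lost when any 1 of the 6 samples was left out (adjusted p 0.0644 to 0.211). Between the doses, the call was lost without either 5 µM sample (0.0531 and 0.0528). The level of Cdt1 was 15.2 and 16.1 times that of Cdc6 with PBS and 112 and 223 times at 10 µM, on the FPKM scale.

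All 6 subunits of the MCM2-7 helicase, the ring that unwinds the parental DNA, fell at both doses. Mcm5 changed most. It was at 15.1 and 12.9 FPKM with PBS, 5.76 and 5.29 at 5 µM, then 3.63 and 3.09 at 10 µM. Its samples separated by group, with log2 changes of -1.20 ± 0.10 at 5 µM (adjusted p = 0.00107) and -1.78 ± 0.10 at 10 µM (adjusted p = 0.000106). Mcm7 measured 9.73 and 9.71 FPKM with PBS, 4.51 and 3.56 at 5 µM, then 2.94 and 2.81 at 10 µM, a log2 change of -1.47 at 10 µM (adjusted p = 0.000162). Mcm7 shares 12.6% of its exon bases with other genes, Cops6 and Ap4m1 on the opposite strand among them. Mcm4 followed with 14.4 and 12.6 FPKM, then 7.12 and 7.40, then 6.73 and 5.61 (log2 change -1.02 at 10 µM, adjusted p = 0.00061).

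Mcm2, Mcm3 and Mcm6 changed less. Mcm2 was at 6.31 and 6.39 FPKM with PBS, 4.55 and 4.34 at 5 µM, then 4.44 and 3.96 at 10 µM (log2 change -0.50 at 10 µM, adjusted p = 0.00184). Mcm6 was at 16.9 and 16.4 FPKM with PBS, 11.4 and 11.1 at 5 µM, then 10.1 and 11 at 10 µM (log2 change -0.61, adjusted p = 0.000559). For both genes the 2 doses lay close together, with no call between them. Mcm3 averaged 16.4, 12.0 and 10.2 FPKM over the 3 groups (log2 change -0.64 at 10 µM, adjusted p = 0.0003). The 6 subunits form a ring with 1 copy of each, and their RNA levels drew apart: the highest over the lowest was 2.68 and 2.56 with PBS, 2.73 and 3.27 at 5 µM, then 3.44 and 3.92 at 10 µM. With PBS Mcm2 was the lowest subunit, and in all 4 KN93 samples Mcm7 was. The level of Mcm6 over that of Mcm5 was 1.12 and 1.27 with PBS, 1.97 and 2.09 at 5 µM, then 2.79 and 3.57 at 10 µM.

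**Figure D3:**
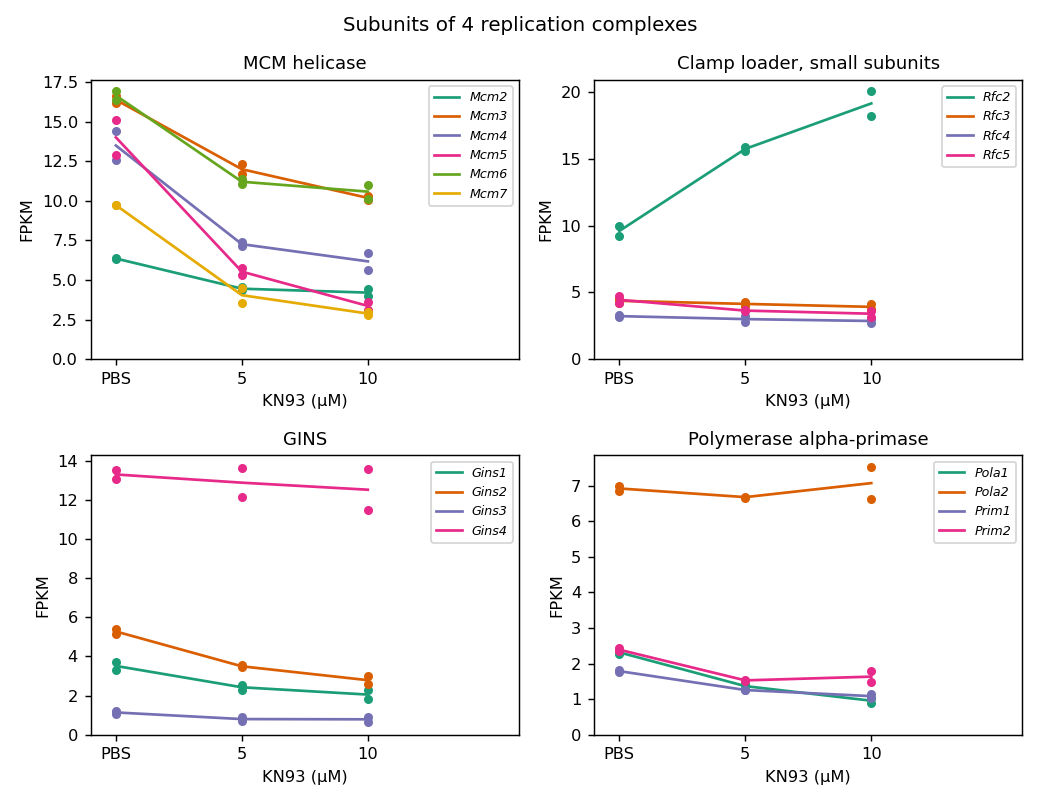
FPKM (y axis, linear, from 0) of the subunits of the MCM helicase, the small clamp loader subunits, GINS and polymerase alpha-primase by KN93 dose (x axis), each point a sample and each line the mean of 2 samples. Every MCM line goes down, Rfc2 alone goes up among the clamp loader subunits, and the top lines of GINS (Gins4) and of polymerase alpha-primase (Pola2) run nearly level.

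Helicase activation factors fell in part. Mcm10, needed to fire the loaded helicase, was at 1.02 and 1.05 FPKM with PBS, 0.429 and 0.436 at 5 µM, then 0.446 and 0.403 at 10 µM. The doses overlapped each other and lay well under PBS (log2 change -0.51 at 10 µM, adjusted p = 0.00788). Cdc45, a core part of the active helicase, was at 2.27 and 2.44 FPKM with PBS, 1.55 and 1.22 at 5 µM, then 1.07 and 1.09 at 10 µM (log2 change -0.69, adjusted p = 0.0023). The GINS complex has 4 subunits, of which Gins2 and Gins1 fell and Gins3 and Gins4 were not called. Gins2 changed most, from 5.42 and 5.13 FPKM with PBS to 3.54 and 3.45 at 5 µM and 2.57 and 3.0 at 10 µM (log2 change -0.73, adjusted p = 0.000789), although 67.3% of its exon bases are shared with Gse1 on the opposite strand, whose means were 6.15, 6.83 and 7.2 FPKM.

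Gins1 averaged 3.52, 2.43 and 2.05 FPKM over the 3 groups (log2 change -0.57 at 10 µM, adjusted p = 0.00626). Gins4, the GINS subunit with the highest level, was at 13.5 and 13.1 FPKM with PBS, 12.1 and 13.6 at 5 µM, then 11.5 and 13.6 at 10 µM. Its 3 groups overlapped, and the log2 change at 10 µM was -0.08 ± 0.09 (adjusted p = 0.48). Gins3 was at 1.07 and 1.21 FPKM with PBS, 0.911 and 0.693 at 5 µM, then 0.657 and 0.923 at 10 µM (log2 change -0.26 ± 0.12, adjusted p = 0.13). Its KN93 samples all lay under its PBS samples, at the edge of the filter. At 5 µM, the calls of Mcm10, Cdc45 and Gins1 were each lost without PBS replicate 1 (adjusted p 0.0803, 0.061 and 0.164), as was that of Gins2 (0.0503). They were lost as well without PBS replicate 2 for Mcm10, Cdc45 and Gins1 (0.0816, 0.0802 and 0.076), without 5 µM replicate 1 for Mcm10 and Gins1 (0.066 and 0.147), and without 5 µM replicate 2 for all 3 (0.066, 0.0654 and 0.0874).

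Of the 5 genes of the clamp and its loader, 2 rose at 10 µM, 1 fell and 2 were not called, with a median log2 change of -0.13. Pcna, the clamp that holds polymerases on DNA and also acts in DNA repair, had the highest level of the 43 genes. It measured 53.7 and 52.6 FPKM with PBS, 64.8 and 63.3 at 5 µM, then 68.8 and 72.0 at 10 µM, with no overlap between groups. Pcna rose by 0.40 ± 0.05 on the log2 scale at 10 µM (adjusted p = 0.00119). The rise of 0.27 at 5 µM (adjusted p = 0.0102) was not called without PBS replicate 1 (0.0507), PBS replicate 2 (0.0609) or 5 µM replicate 1 (0.0621). The pseudogene Pcna-ps2, whose entry could share fragments with Pcna, was listed at 0.695 to 0.861 FPKM over the 6 samples.

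Rfc2, a small subunit of the clamp loader, rose most of the 43 genes: 9.21 and 10.0 FPKM with PBS, 15.9 and 15.6 at 5 µM, then 18.3 and 20.1 at 10 µM. The groups did not overlap, and the mean at 10 µM was 2.0 times that with PBS (log2 change 0.93 ± 0.07, adjusted p = 0.000218). From 5 to 10 µM the change was 0.27 (adjusted p = 0.0419), a call that was lost when any 1 of the 6 samples was left out (0.0512 to 0.166). Rfc2 lies on chromosome 5 from 134581366 to 134601805 (plus strand, GRCm38) and shares 15.1% of its exon bases with Lat2, an adaptor protein of immune receptor signalling, on the opposite strand. Lat2 was at 23.5 and 24.4 FPKM with PBS, 53.3 and 54.1 at 5 µM, then 92.3 and 97.8 at 10 µM, a mean 3.97 times that with PBS at 10 µM. Whether the counting used strand is not given in the sources used here, and the part of Lat2 fragments in the rise of Rfc2 was not tested.

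**Figure D4:**
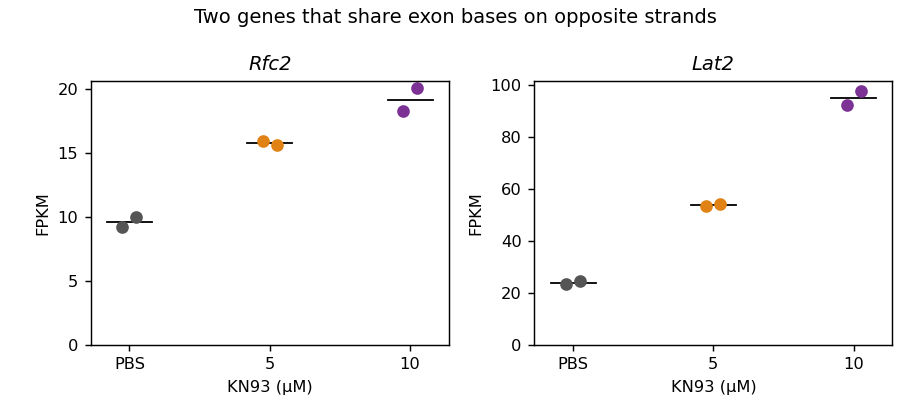
FPKM (y axes, linear, from 0) of Rfc2 and of Lat2, a gene that shares exon bases with it on the opposite strand, by KN93 dose (x axes). Points are samples and bars the means of 2 samples, and both genes step up from PBS to 5 µM and again to 10 µM.

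The other small subunits of the loader did not rise. Rfc5 was at 4.71 and 4.17 FPKM with PBS, 3.68 and 3.59 at 5 µM, then 3.19 and 3.61 at 10 µM (log2 change -0.31 at 10 µM, adjusted p = 0.0229), and this call was lost without PBS replicate 1 (0.119) or 10 µM replicate 1 (0.0891). Rfc3 averaged 4.37, 4.14 and 3.92 FPKM (log2 change -0.13 at 10 µM, adjusted p = 0.17), and Rfc4 averaged 3.22, 3.0 and 2.86 FPKM (log2 change -0.13, adjusted p = 0.217). Rfc4 shares 12.7% of its exon bases with Eif4a2 on the opposite strand, which averaged 34.4, 34.6 and 33.1 FPKM. Rfc5 shares 10.7% with Wsb2 on the opposite strand, which averaged 22.6, 31.3 and 32.6 FPKM. The part of Eif4a2 and Wsb2 fragments in the levels of Rfc4 and Rfc5 was not tested. Among the 4 small subunits, the highest over the lowest was 2.95 and 3.02 with PBS, 4.98 and 5.57 at 5 µM, then 6.70 and 6.72 at 10 µM, with Rfc2 the highest and Rfc4 the lowest in every sample.

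Of the 6 polymerase and primase genes, 5 fell at 10 µM. Pole, the catalytic subunit of the leading-strand polymerase epsilon, changed most in this group: 1.38 and 1.31 FPKM with PBS, 0.486 and 0.534 at 5 µM, then 0.400 and 0.281 at 10 µM. Its groups did not overlap (log2 change -0.81 ± 0.10 at 10 µM, adjusted p = 0.00178). Pola1, the catalytic subunit of polymerase alpha, was at 2.37 and 2.27 FPKM with PBS, 1.42 and 1.31 at 5 µM, then 1.02 and 0.891 at 10 µM (log2 change -0.76, adjusted p = 0.000953). Its partner Pola2, the regulatory subunit, was at 7.0 and 6.84 FPKM with PBS, 6.66 and 6.70 at 5 µM, then 6.63 and 7.52 at 10 µM. The groups of Pola2 overlapped between PBS and 10 µM, and its log2 change there was 0.03 ± 0.07 (adjusted p = 0.782). The level of Pola2 over that of Pola1 was 2.96 and 3.02 with PBS, then 6.48 and 8.44 at 10 µM.

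Primase, which makes the RNA start of each primer, fell in both subunits. Prim1, the catalytic one, averaged 1.79, 1.26 and 1.09 FPKM (log2 change -0.42 at 10 µM, adjusted p = 0.00738), a call just missed without PBS replicate 1 (0.0501). Prim2, the large subunit, averaged 2.39, 1.53 and 1.63 FPKM (log2 change -0.37 at 10 µM, adjusted p = 0.0159), and its call was lost without PBS replicate 1 (0.0814), PBS replicate 2 (0.0621) or 10 µM replicate 2 (0.0577). At 5 µM, leaving out any PBS or 5 µM sample ended the calls of Prim1 (adjusted p 0.121 to 0.165) and Prim2 (0.0702 to 0.0914). The 5 µM call of Pola1 was lost without PBS replicate 1 (0.0647) or 5 µM replicate 2 (0.0557), and that of Pole without PBS replicate 1 (0.0603).

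Pold1, the catalytic subunit of the lagging-strand polymerase delta, was at 9.13 and 8.49 FPKM with PBS, 7.88 and 8.01 at 5 µM, then 5.60 and 5.87 at 10 µM. The 5 µM samples lay slightly under PBS without a call (log2 change -0.13 ± 0.06, adjusted p = 0.135), and the 10 µM samples lay under both. Pold1 fell by 0.54 at 10 µM (adjusted p = 0.000834) and by 0.41 from 5 to 10 µM (adjusted p = 0.0079), the latter not called without 5 µM replicate 2 (0.0546). E2f1, an E2F activator, was at 13.3 and 12.7 FPKM with PBS, 12.1 and 12.4 at 5 µM, then 9.67 and 10.5 at 10 µM. It fell by 0.34 ± 0.06 at 10 µM (adjusted p = 0.0046) and by 0.26 between the doses (adjusted p = 0.0303), with -0.08 at 5 µM (adjusted p = 0.323). The difference of the 2 dose steps was not called for Pold1 (-0.28, adjusted p = 0.153) or E2f1 (-0.17, adjusted p = 0.321). Between the doses the E2f1 call held without 10 µM replicate 2 and was lost without any 1 of the other samples (0.0569 to 0.136).

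The 3 genes of single-strand binding and lagging-strand completion fell at both doses. Lig1, the ligase that seals Okazaki fragments, was at 9.98 and 9.52 FPKM with PBS, 4.96 and 5.32 at 5 µM, then 3.55 and 3.96 at 10 µM. It fell by 1.18 ± 0.07 on the log2 scale at 10 µM (adjusted p = 0.000112). Fen1, the flap endonuclease that trims Okazaki fragments, was at 15.4 and 16 FPKM with PBS, 10.9 and 11.2 at 5 µM, then 8.16 and 9.53 at 10 µM (log2 change -0.76, adjusted p = 0.000679). Fen1 shares 84.2% of its exon bases with Tmem258 and Gm10143 on the opposite strand. Tmem258 averaged 20.5, 19.6 and 21 FPKM and was not called at either dose (adjusted p = 0.464 and 0.653), while Gm10143 fell at 10 µM, from a mean of 1.36 to 0.738 FPKM (log2 change -0.44, adjusted p = 0.0274). Rpa2, a subunit of the protein that coats single-stranded DNA, was at 3.49 and 3.81 FPKM with PBS, 2.46 and 2.13 at 5 µM, then 1.99 and 2.11 at 10 µM (log2 change -0.61 at 10 µM, adjusted p = 0.00197), and its 5 µM call was lost without PBS replicate 2 (0.0531).

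All 5 nucleotide supply genes fell at 10 µM, by log2 changes from -0.24 (Dut) to -2.30 (Rrm2). Rrm2, the small subunit of ribonucleotide reductase, which makes deoxyribonucleotides and is produced in S phase, was at 8.11 and 7.43 FPKM with PBS, 2.14 and 1.33 at 5 µM, then 0.985 and 0.585 at 10 µM. Its groups did not overlap, and it fell by 1.70 ± 0.17 at 5 µM (adjusted p = 0.002) and by 2.30 ± 0.17 at 10 µM (adjusted p = 0.000261). Rrm1, the large subunit, was at 6.45 and 6.07 FPKM with PBS, 3.02 and 2.78 at 5 µM, then 2.33 and 2.29 at 10 µM (log2 change -1.13 ± 0.06 at 10 µM, adjusted p = 0.00011). With PBS the level of Rrm2 was 1.26 and 1.22 times that of Rrm1. At 5 µM it was 0.707 and 0.477 times, and at 10 µM 0.422 and 0.255 times, so that the subunits changed order.

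Tk1, the thymidine kinase of the salvage pathway, was at 3.98 and 3.52 FPKM with PBS, 1.12 and 0.923 at 5 µM, then 0.486 and 0.434 at 10 µM, or 61 and 64 fragments. It fell by 1.23 ± 0.10 at 5 µM (adjusted p = 0.000891) and by 1.70 ± 0.10 at 10 µM (adjusted p = 0.000109). Tyms, which makes thymidylate, was at 1.52 and 1.36 FPKM with PBS, 0.879 and 1.01 at 5 µM, then 0.883 and 0.758 at 10 µM (log2 change -0.42 at 10 µM, adjusted p = 0.0145), a call lost without PBS replicate 1 (0.0852) or 10 µM replicate 2 (0.0622). Dut, which removes dUTP, had the smallest fall of this role: 3.05 and 3.13 FPKM with PBS, 2.68 and 2.58 at 5 µM, then 2.27 and 2.68 at 10 µM. Its log2 change of -0.24 at 10 µM (adjusted p = 0.048) held without 10 µM replicate 2 and was not called when any 1 of the other samples was left out (0.0779 to 0.17).

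E2f8 and the E-type cyclins fell further than E2f1. E2f8, a repressor that is itself an E2F target, was at 1.39 and 1.15 FPKM with PBS, 0.467 and 0.331 at 5 µM, then 0.243 and 0.110 at 10 µM. Its groups did not overlap (log2 change -0.95 ± 0.13 at 10 µM, adjusted p = 0.00203). The 5 µM call of E2f8 was lost without PBS replicate 1 (0.0776) or 5 µM replicate 2 (0.0628). Ccne1, cyclin E1, which drives CDK2 at the G1-to-S transition, was at 2.69 and 2.77 FPKM with PBS, 1.16 and 1.10 at 5 µM, then 0.715 and 0.966 at 10 µM (log2 change -1.02, adjusted p = 0.000566). Ccne2, cyclin E2, stayed below the filter with 0.936 and 0.909 FPKM with PBS, 0.239 and 0.227 at 5 µM, then 0.178 and 0.101 at 10 µM. Without a filter its log2 change was -0.64 at 5 µM (adjusted p = 0.01) and -0.76 at 10 µM (adjusted p = 0.00257). Ccne2 shares 17.4% of its exon bases with Ints8 on the opposite strand, which averaged 3.18, 2.56 and 2.86 FPKM over the 3 groups. E2f8 shares 11.2% with Gm2788 on the opposite strand, which averaged 0.0427, 0.0075 and 0.0023 FPKM. The part of Ints8 and Gm2788 fragments in these levels was not tested.

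Chromatin assembly and maintenance methylation split too. Uhrf1, which reads hemimethylated DNA behind the fork and brings in DNMT1, was at 9.11 and 7.07 FPKM with PBS, 2.29 and 2.34 at 5 µM, then 1.44 and 0.951 at 10 µM. Its groups did not overlap, and it fell by 1.45 ± 0.15 at 5 µM (adjusted p = 0.00198) and by 2.05 ± 0.15 at 10 µM (adjusted p = 0.000222). Dnmt1, the maintenance methyltransferase it recruits, was at 20.6 and 21.2 FPKM with PBS, 27.0 and 25.4 at 5 µM, then 29.7 and 30.0 at 10 µM. Those groups did not overlap either, and Dnmt1 rose by 0.31 at 5 µM (adjusted p = 0.00773, and 0.0515 without PBS replicate 1) and by 0.50 ± 0.05 at 10 µM (adjusted p = 0.000721). The level of Dnmt1 over that of Uhrf1 was 2.26 and 3.0 with PBS, 11.8 and 10.9 at 5 µM, then 20.7 and 31.5 at 10 µM.

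Chaf1a, the large subunit of the histone chaperone CAF-1, was at 2.60 and 2.86 FPKM with PBS, 2.28 and 2.25 at 5 µM, then 1.71 and 1.79 at 10 µM (log2 change -0.44 at 10 µM, adjusted p = 0.00424). It shares 52.5% of its exon bases with Ubxn6 on the opposite strand, which averaged 9.10, 9.81 and 10.5 FPKM. Chaf1b, the middle subunit, was at 1.95 and 2.12 FPKM with PBS, 1.74 and 1.63 at 5 µM, then 1.55 and 2.0 at 10 µM, so that PBS and 10 µM overlapped (log2 change -0.13 ± 0.10, adjusted p = 0.326).

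At 5 µM, 24 of the 40 tested genes fell and 4 rose, beside 15.4% and 15.1% of all genes tested. The median log2 change was -0.42, beside 0.01 for all genes tested, and 39 of the 43 genes had a lower mean than with PBS. Rfc2, Dnmt1, Pcna and Cdt1 were the 4 that rose. Both dose comparisons use the same 2 PBS samples, so their calls are not independent of each other. Uncalled at 5 µM, besides Pold1, E2f1 and the 6 genes without a call at 10 µM, were Rfc5 (log2 change -0.23, adjusted p = 0.0803), Tyms (-0.33, adjusted p = 0.0506), Dut (-0.17, adjusted p = 0.153) and Chaf1a (-0.19, adjusted p = 0.0956). With a PBS or 5 µM sample left out, fewer genes were called at 5 µM, and the median log2 change ran from -0.44 to -0.40. A fit without 1 sample has fewer degrees of freedom for every gene. The share of all genes called in such a fit was not counted.

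Between 5 and 10 µM, 9 genes fell further, beside 8.5% of all genes tested, and 2 rose further, beside 11.4%. The 9 were Mcm3, Mcm5, Mcm7, Fen1, Lig1, Tk1, Uhrf1, Pold1 and E2f1, and the 2 were Cdt1 and Rfc2. The median log2 change was -0.14, beside 0.04 for all genes tested, and 36 of the 43 means were lower at 10 than at 5 µM. None of these 11 calls held under every alternative. With any 1 sample left out, fewer genes were called between the doses, and the median log2 change ran from -0.15 to -0.13.

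The size of the first step, from PBS to 5 µM, was set against that of the second, from 5 to 10 µM, in the same fit. For 1 of the 40 genes the steps differed in the direction of a second step that lies higher, beside 2.88% of all genes tested. That gene was Rrm1, with -0.90 for the first step and -0.24 for the second, a difference of 0.66 (adjusted p = 0.0386). The call was lost when any 1 of the 6 samples was left out (0.0639 to 0.225). Larger step differences without a call were those of Rrm2 (1.09 ± 0.30, adjusted p = 0.0966), Uhrf1 (0.84 ± 0.25, 0.115), Tk1 (0.76 ± 0.17, 0.0624) and Mcm7 (0.725 ± 0.17, 0.0661). The median step difference of the 40 genes was 0.23. Over the 40 tested genes, the median log2 difference from the PBS mean was -0.40 and -0.43 in the 5 µM samples and -0.47 and -0.54 in the 10 µM samples, with a pooled SD of 0.03 within groups.

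The summed level of the 5 nucleotide supply genes was 23.1 and 21.5 FPKM with PBS and 6.95 and 6.75 at 10 µM, and that of the 6 MCM subunits was 79.1 and 74.1 with PBS and 37.9 and 36.8 at 10 µM.

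Other genes around replication and the cell cycle were counted from lists. Among all genes tested, 22% fell at 10 µM and 28.5% rose, the shares to set beside every list below. Of 44 tested replication factors outside the 43, 18 fell and 7 rose at 10 µM, with a median log2 change of -0.14. The largest falls were those of the histone chaperone Asf1b (5.47 to 1.78 FPKM, log2 change -1.22) and the checkpoint adaptor Clspn (1.40 to 0.171 FPKM, -1.03), and the largest rises those of Rnaseh2b, a subunit of ribonuclease H2 (0.63), and Asf1a, a paralog of Asf1b (0.50). Of 28 other nucleotide enzymes, 4 fell and 5 rose (median 0.01), with Ctps, which makes CTP, at -0.82, Cmpk2 at 2.24 and the folate enzyme Mthfd2 at 1.49. Of 14 tested fork repair and checkpoint genes, 6 fell and 1 rose (median -0.22), with Brca1 at -0.63, Trip13 at -0.53 and Atrip at 0.30.

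Of 16 E2F, RB and DREAM factors, 6 fell and 2 rose (median -0.15), with Foxm1 at -1.11, Mybl2 at -0.83, E2f6 at 0.35 and Lin37 at 0.32. All 27 tested mitosis genes fell at 10 µM, with a median of -1.20, led by the topoisomerase Top2a at -1.97 and the kinase Plk1 at -1.80. That median lies further from 0 than that of the replication genes, and 26 of the 27 fell at 5 µM as well. Clustered histone genes, whose RNA largely lacks a poly(A) tail, were mostly low: 58 of 70 entries stayed below 1 FPKM in every sample. Of the 7 tested, Hist1h2ao fell (-1.27, adjusted p = 0.0268) and 5 rose, Hist1h1c and Hist1h2bc most (1.69 and 0.83).

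Among the 12 CDK inhibitors, D cyclins and their kinases, the cyclins Ccnd1, Ccnd2 and Ccnd3 fell at 10 µM (33.5 to 10.3, 22.6 to 11 and 4.91 to 2.43 FPKM), as did Cdkn2c (3.26 to 1.92). Cdkn1c, which encodes the inhibitor p57, rose from 1.35 to 5.25 FPKM at 5 µM and 25.3 at 10 µM (log2 change 3.49, adjusted p = 0.000111). Cdkn1a, which encodes p21, rose from 76.0 to 124 and 144 FPKM (0.91 at 10 µM, adjusted p = 9.39e-05), and the kinase Cdk4 rose from 24.9 to 29.3 and 35.2 FPKM. Cdkn1b, which encodes p27, fell at 5 µM (-0.37, adjusted p = 0.00829) and was not called at 10 µM (-0.16, adjusted p = 0.0782). Cdkn2a, Cdkn2b, Cdkn2d and Cdk6 were called at neither dose, with log2 changes of 0.24, -0.03, 0.02 and 0.02 at 10 µM.

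**Figure D5:**
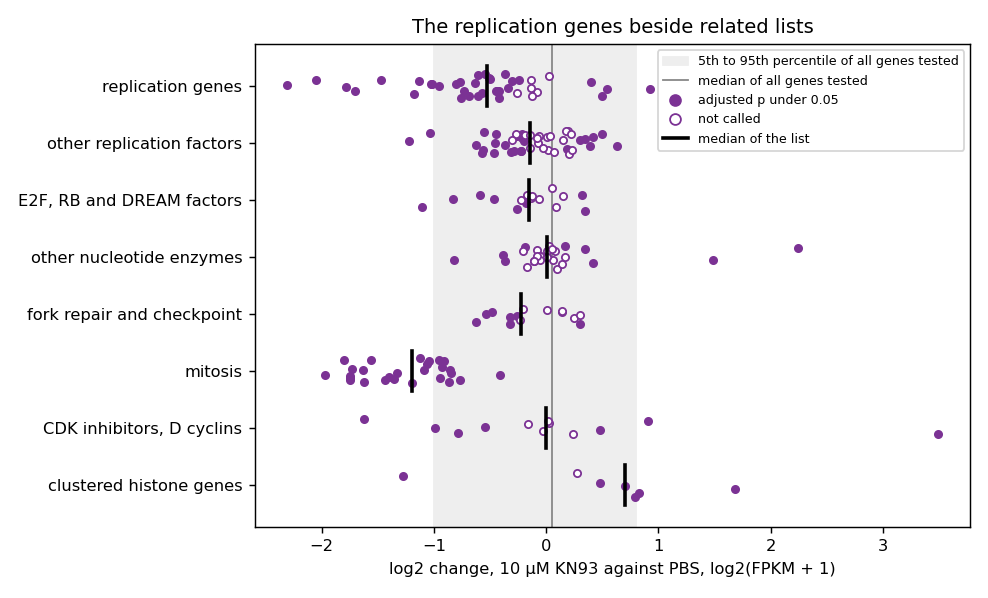
Log2 change of each tested gene at 10 µM KN93 against PBS (x axis) for the replication genes and 7 related lists (rows), with filled points for genes called at an adjusted p under 0.05, open points for the others and a black bar at each list's median. The grey band spans the 5th to 95th percentile of all genes tested (-0.995 to 0.803), and the replication genes spread from -2.30 to 0.93 around a median of -0.53.

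Markers of other cells that a marrow culture can hold moved with dose as well. The summed level of 14 stromal markers was 2410 to 2470 FPKM with PBS, 735 to 883 at 5 µM and 542 to 590 at 10 µM. With PBS the highest of them were Col1a1 (831 and 781 FPKM) and Acta2 (657 and 672 FPKM), while Lum and Thy1 stayed below 1 FPKM in all samples. Of the 12 tested, 10 fell at 10 µM. Among all genes tested, 22% fell and 28.5% rose in that comparison. The 9 neutrophil markers summed to 136 FPKM in both PBS samples, 63.3 to 66.1 at 5 µM and 14.6 to 17.4 at 10 µM. All 6 tested fell at 10 µM, and Cxcr2, Ly6g and Retnlg stayed below 1 FPKM. The 9 progenitor markers (Kit, Cd34 and Mpo among them) were below 1 FPKM in every sample and summed to 1.39 to 2.29 with PBS and 0.0897 to 0.212 at 10 µM. The 8 lymphoid markers summed to 7.99 to 8.03 FPKM with PBS and 1.37 to 1.77 at 10 µM, with all but Cd79b below 1, and all 7 erythroid markers were below 1. Macrophage markers summed to 19400 to 19900 FPKM with PBS, 14900 to 15400 at 5 µM and 8520 to 9400 at 10 µM, 7 of the 10 fell at 10 µM and 1 rose. Lyz2 made up most of that sum, at 15400 and 15052 FPKM with PBS and 5849 and 6568 at 10 µM. Cd68 was the marker that rose, from 842 and 861 FPKM to 1396 and 1511, and Spi1 (112 and 103 FPKM with PBS, 100.3 and 108 at 10 µM) and Fcgr1 (295 and 255, then 270 and 249) were not called. Mitochondrially encoded genes made up 2.45% to 2.72% of the summed FPKM with PBS, 1.37% to 1.90% at 5 µM and 0.958% to 1.31% at 10 µM. The part of these shifts in the changes of the replication genes was not tested.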

How the data were processed

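RNA of 6 samples in 3 groups of 2 was analysed. The authors deposited FPKM values in 1 table of 54446 entries with 4 decimals. Reads had been aligned with HISAT2 to GRCm38, per the submitters' processing notes. Not given in the sources used here are the versions, the counter, the annotation and the use of strand. Gene IDs were matched to GENCODE M21 (99.93% of entries) for exon lengths and overlaps. FPKM times length came out whole within 0.1 fragment for 98.8% to 99.0% of values up to 20 fragments, which gave library totals of 24173000 to 28385000 fragments, the depth that limits low genes. The filter for testing was 1 FPKM or more in 2 or more samples. The log2(FPKM + 1) values were fitted with limma 3.58.1 in R 4.3.3 (eBayes with intensity trend, group as factor, all 6 samples, 3 residual and 2.72 prior degrees of freedom, two-sided, Benjamini-Hochberg over 12722 genes). The fit was tested on simulated data.

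The members, lists, tests and alternatives were chosen with earlier results of these data known. Every member is named. Values for each sample go to the largest and smallest change of each role, to members below the filter or unlike their role, and to those whose promoter is printed, and some further members were given likewise. Of related lists, up to 2 called genes in each direction are named, and of the CDK inhibitor list all tested. Some genes that this rule would name are not reported here. Promoter windows are from RefSeq (GRCm38.p6). Alternatives changed the pseudocount, filter, scaling, trend, samples, replicate block, fold threshold or values tested, or left out a sample.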

Additional observations from a re-analysis of the deposited data

Results flagged for a closer look

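For Rrm1, the large subunit of ribonucleotide reductase, the second 5 µM step of KN93 differed from the first by 0.66 on the log2(FPKM + 1) scale (limma, adjusted p = 0.0386): the change was -0.90 from PBS to 5 µM and -0.24 from 5 to 10 µM. The difference had an adjusted p of 0.0552 with the replicate number as a block and of 0.11 with no filter on low values. The call was also lost when any 1 of the 6 samples was left out (0.0639 to 0.225). This was 1 of 40 replication genes tested, beside 2.88% of all genes called in that direction. Rrm2, Uhrf1, Tk1 and Mcm7 had larger differences in the same direction without a call.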

How the results depend on the processing

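Some calls on the replication genes held under every alternative that tested the gene, other than the fold threshold. These were 29 of 34 at 10 µM, 14 of 28 at 5 µM and 0 of 11 between the doses. A filter of 5 FPKM left 20 replication genes in the test, of which 12 fell at 5 µM and 14 at 10 µM. Calls on the genes it dropped were not put to that alternative. Asking also for a log2 change of at least 1 left 5 and 9 falling at 5 and 10 µM, and 0 rising at either dose, 0 called in either direction between the doses and 0 for the difference of the dose steps. Between the doses, the number that fell was 1 with no filter, 4 with only the 2 groups compared and 14 with voom on recovered fragments, and the number that rose was 1 with no filter, median-of-ratios scaling, no intensity trend, only the 2 groups compared or the replicate block. For the difference of the dose steps, the count was 0 with no filter or the replicate block, 2 with the 5 FPKM filter or no trend, and 4 with voom. Leaving out 1 sample gave 14 to 24 falling and 1 to 3 rising at 5 µM, 25 to 29 falling and 4 rising at 10 µM, 1 to 5 falling and 0 to 1 rising between the doses, and 0 for the dose steps. The median log2 change at 5 µM was -0.51 with a pseudocount of 0.1 and -0.56 with voom. At 10 µM it was -0.68 with that pseudocount, -0.62 with the 5 FPKM filter, -0.59 with median-of-ratios scaling, -0.73 with voom and -0.54 to -0.47 with 1 sample left out. Between the doses it was -0.22 with that pseudocount, -0.23 with the 5 FPKM filter and -0.22 with voom. The sign turned for uncalled genes: Gins4 ran from -0.122 to 0.0325 at 5 µM and from -0.196 to 0.0266 at 10 µM with 1 sample left out, and Pola2 at 10 µM was -0.0403 with median-of-ratios scaling and ran from -0.0549 to 0.105 with 1 sample left out. Where no construction is named, the cause was not tested. Same-numbered samples did not deviate together (r of -0.055, 0.014 and 0.037 over genes), so the replicate block has no basis in a pairing. Under it Prim1 and Cdt1 lost their calls at 5 µM (adjusted p = 0.0582 and 0.0689) and Dut at 10 µM (0.067). Mcm3, Rfc2 and E2f1 lost theirs between the doses (0.0623, 0.0501 and 0.054), and Rrm1 its call for the dose steps (0.0552).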
